A study of Homo sapiens with 31 samples.

Results

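The human mitochondrial chromosome carries 37 genes, namely 13 mRNAs, 2 rRNAs and 22 tRNAs, and all 37 were present among the 30667 gene identifiers counted in NALM-6 cells, a B-cell precursor acute lymphoblastic leukemia line. They were chosen by their position on that chromosome and by symbols beginning with MT-. This rule used no measured values, but it was set with earlier results of these data known. NALM-6 cells were transduced with EF1a/sh-CTRL, SFFV/sh-CTRL, EF1a/sh-XIAP or SFFV/sh-XIAP, where the short hairpin targeted XIAP or was a control and the promoter driving it was EF1a or SFFV. The study speaks of strong XIAP knockdown (KD) for SFFV/sh-XIAP and of moderate KD for EF1a/sh-XIAP. The 31 samples were taken 4, 10 and 13 days post-transduction, with 3, 3 and 3 samples of EF1a/sh-CTRL, 3, 2 and 2 of SFFV/sh-CTRL, 2, 2 and 3 of EF1a/sh-XIAP, and 2, 3 and 3 of SFFV/sh-XIAP. All cells carried a construct, control and knockdown cells bore different fluorescent markers, and the labels describe culture in vitro whereas the series' own design text has the cells isolated from mouse bone marrow. The labels do not say whether replicates were separate transductions, so the p-values measure only the spread between these samples, which may be technical.

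As background, the mitochondrial chromosome is transcribed from both strands into long precursors. The tRNAs lie between most of the mRNAs and rRNAs, and their excision frees the neighbouring transcripts. The mRNAs encode subunits of respiratory chain complexes: the ND genes belong to complex I (NADH dehydrogenase), MT-CYB to complex III, MT-CO1, MT-CO2 and MT-CO3 to complex IV (cytochrome c oxidase), and MT-ATP6 and MT-ATP8 to the ATP synthase. MT-RNR1 and MT-RNR2 are the RNAs of the small and the large subunit of the mitochondrial ribosome. Human mitochondrial mRNAs carry short poly(A) tails, with MT-ND6 as the known exception, whereas mature tRNAs end in an added CCA. The libraries were made by prime-seq, which primes on poly(A) and counts unique molecular identifiers (UMIs) near the 3' end of transcripts.

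Genes on this chromosome touch or overlap, and nuclear pseudogenes hold near-identical copies of them, so the sequences set how far counts can be assigned to a gene. The last 60 annotated bases of the 3 mitochondrial genes whose nuclear copies had the most UMIs are shown beside those copies, from GENCODE 29 on GRCh38, with capitals for a base that differs from the mitochondrial one.
MT-CO2, chrM:8210-8269, plus strand: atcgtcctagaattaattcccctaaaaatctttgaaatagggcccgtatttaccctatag
MTCO2P12, chr1:633379-633438, plus strand: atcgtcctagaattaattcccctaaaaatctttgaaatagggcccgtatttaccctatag
MT-ATP6, chrM:9148-9207, plus strand: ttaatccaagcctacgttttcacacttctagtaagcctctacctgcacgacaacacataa
MTATP6P1, chr1:634317-634376, plus strand: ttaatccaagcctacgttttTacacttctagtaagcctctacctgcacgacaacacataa
MT-CO1, chrM:7386-7445, plus strand: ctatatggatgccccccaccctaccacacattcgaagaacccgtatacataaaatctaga
MTCO1P12, chr1:632557-632616, plus strand: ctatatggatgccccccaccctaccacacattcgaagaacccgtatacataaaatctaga
In this window MTCO2P12 and MTCO1P12 had 0 mismatches and MTATP6P1 had 1. Over the whole aligned gene the identity was 98.2%, 98.7% and 98.5%, respectively.

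A different kind of sharing arises within the chromosome. The end of MT-ATP8 is shown because its last 46 bases, in capitals, are also the start of MT-ATP6, and the end of MT-ND4L because its last 7 bases, in capitals, are also the start of MT-ND4.
MT-ATP8 end, chrM:8513-8572, plus strand: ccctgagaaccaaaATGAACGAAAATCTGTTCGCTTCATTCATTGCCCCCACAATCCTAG
MT-ND4L end, chrM:10737-10766, plus strand: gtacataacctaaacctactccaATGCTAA
Both pairs are known to be carried on shared mRNAs. MT-ATP8 had 414 UMIs in all 31 samples against 32126 for MT-ATP6, and MT-ND4L had 959 against 28668 for MT-ND4. The upstream member of each pair was thus the one with few UMIs.

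The mitochondrial genes took 384382 of 20542387 UMIs, or 1.87%. The mRNAs held 326044 of these (84.8%), the rRNAs 55120 (14.3%) and the tRNAs 3218 (0.837%). Levels were uneven within each class. MT-CO2 (chrM:7586-8269), the second cytochrome c oxidase subunit, alone had 141559 UMIs, or 36.8% of the mitochondrial total. It was followed by MT-RNR2 with 49426, MT-CO3 with 40422, MT-ATP6 with 32126, MT-ND4 with 28668, MT-CO1 with 28536 and MT-CYB with 24605. The other complex I genes were lower, with 11008 for MT-ND1, 10526 for MT-ND2, 4200 for MT-ND5, 2149 for MT-ND6 and 872 for MT-ND3, and MT-RNR1 had 5694.

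Divided by gene length, MT-CO2 again came first, with 206958 UMIs per kb in all samples. MT-CO3 had 51559, MT-ATP6 47175, MT-RNR2 31704, MT-CYB 21564, MT-ND4 20804 and MT-CO1 18506 UMIs per kb. A 3' protocol gives about 1 tag per molecule whatever its length, so this scale favours short genes. The lowest mRNAs per length were MT-ATP8 with 2000, MT-ND5 with 2318 and MT-ND3 with 2520 UMIs per kb.

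**Figure D1:**
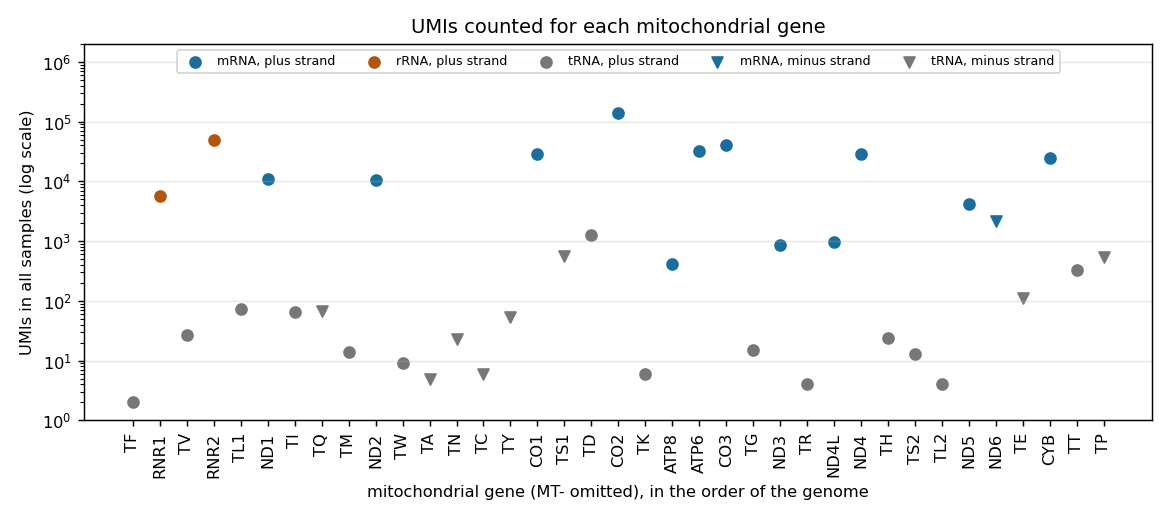
UMIs summed over all 31 samples (y axis, log scale) for the 37 mitochondrial genes in genome order (x axis), coloured by class and with triangles for the minus strand. MT-CO2 stands highest at 141559 UMIs, and 17 of the 22 tRNAs have under 100.

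MT-ND6 and 8 tRNAs lie on the minus strand and the other 28 genes on the plus strand. Whether strand was used in counting is not given in the sources used here, so reads of a minus-strand gene and of an antisense transcript cannot be told apart. The tRNAs split into 5 with at least 100 UMIs and 17 with fewer. MT-TD (aspartate tRNA) had 1244, MT-TS1 (a serine tRNA, minus strand) 573, MT-TP (proline tRNA, minus strand) 541, MT-TT (threonine tRNA) 335 and MT-TE (glutamate tRNA, minus strand) 111. MT-TF, the tRNA at the start of the rRNA precursor, had 2 UMIs in the whole series. MT-TD and MT-TS1 fill the space between MT-CO1 and MT-CO2, and MT-TT and MT-TP follow MT-CYB. What molecules the tRNA UMIs came from was not tested. The 4 tRNAs with the most UMIs are given whole, in the sense of the gene, because the changes with day below include MT-TD and MT-TT; no capitals are used.
MT-TD, chrM:7518-7585, plus strand: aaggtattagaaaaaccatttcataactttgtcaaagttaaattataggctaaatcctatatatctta
MT-TS1, chrM:7446-7514, minus strand: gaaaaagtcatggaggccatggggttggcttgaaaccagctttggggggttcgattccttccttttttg
MT-TP, chrM:15956-16023, minus strand: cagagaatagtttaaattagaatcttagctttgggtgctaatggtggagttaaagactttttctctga
MT-TT, chrM:15888-15953, plus strand: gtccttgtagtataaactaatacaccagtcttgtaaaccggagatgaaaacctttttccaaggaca

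The share of UMIs on mitochondrial genes lay between 1.76% and 2.12% in every sample. It was 1.94% ± 0.0868 (SD, n = 10) at day 4, 1.87% ± 0.105 (SD, n = 10) at day 10 and 1.83% ± 0.0537 (SD, n = 11) at day 13. At days 10 and 13 together it was 1.79% ± 0.0407 (SD, n = 6) with EF1a/sh-CTRL, 1.85% ± 0.0471 (SD, n = 4) with SFFV/sh-CTRL, 1.83% ± 0.0345 (SD, n = 5) with EF1a/sh-XIAP and 1.92% ± 0.110 (SD, n = 6) with SFFV/sh-XIAP. Over both days the ranges of SFFV/sh-XIAP and of each other construct overlapped. At day 10 alone the 3 SFFV/sh-XIAP samples, at 1.90% to 2.12%, lay above all others, whose highest values were 1.80% with EF1a/sh-CTRL, 1.89% with SFFV/sh-CTRL and 1.88% with EF1a/sh-XIAP. At day 13 they ranged from 1.79% to 1.93% and overlapped the others. With EF1a/sh-CTRL the share was 1.84% to 2.11% at day 4 and 1.76% to 1.80% at day 10, without overlap. No test was made of this sum. The highest shares were 2.12% in SFFV/sh-XIAP day 10 replicate 2 (95% Wilson interval 2.07% to 2.17%) and 2.11% in EF1a/sh-CTRL day 4 replicate 2 (2.06% to 2.15%). The other SFFV/sh-XIAP samples of day 10 were at 1.90% and 1.92%. Both samples with the highest shares also stood furthest from the other samples of their construct and day, as given near the end of the results. They were shallow, with 312852 and 372930 UMIs, while EF1a/sh-XIAP day 10 replicate 2, with 315055 UMIs, had a share of 1.84%. The part of depth in these values was not tested. Such intervals cover counting error only. In bulk samples fewer cells of a type and less RNA per cell cannot be told apart, and a share also moves with the nuclear transcripts beside it.

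**Figure D2:**
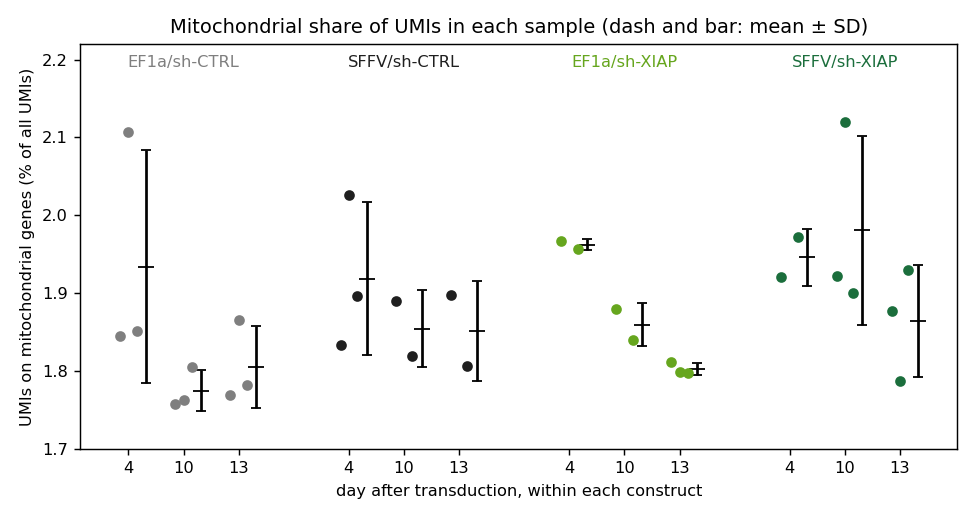
Share of all UMIs on the 37 mitochondrial genes (y axis, %) in each of the 31 samples, by construct and by day after transduction (x axis); dashes and bars are the mean and SD of each group, and the y axis does not start at 0. The samples range from 1.76% to 2.12%; the 3 SFFV/sh-XIAP samples of day 10 (1.90% to 2.12%) lie above every other day 10 sample, while at day 13 the constructs overlap.

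The rRNAs took 14.03% ± 0.761 (SD, n = 10) of the mitochondrial UMIs at day 4, 14.6% ± 1.25 (SD, n = 10) at day 10 and 14.3% ± 0.827 (SD, n = 11) at day 13. By construct at days 10 and 13 it was 14.6% to 15.9% with EF1a/sh-CTRL and 13.5% to 14.2% with SFFV/sh-CTRL, which did not overlap, 13.9% to 15.5% with EF1a/sh-XIAP, and 11.7% to 14.8% with SFFV/sh-XIAP. The lowest value, 11.7%, was that of SFFV/sh-XIAP day 10 replicate 2, the sample with the highest share. The tRNAs took 0.0171% to 0.0208% of all UMIs with SFFV/sh-XIAP and 0.0145% to 0.0165% with SFFV/sh-CTRL at days 10 and 13, and 0.0170% to 0.0177% and 0.0136% to 0.0147% at day 4, without overlap in either period. With EF1a/sh-CTRL the tRNA share at days 10 and 13 was 0.0140% to 0.0200% and overlapped that of SFFV/sh-XIAP. These class sums were compared after their values were seen and were not tested. The nuclear copies had 39.3 to 44.2 UMIs per 100 mitochondrial UMIs over the 31 samples.

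The first comparison asked which mitochondrial genes changed with time after transduction, over all constructs. Of the 37 genes, 28 passed a filter on low counts (over 1 CPM in at least 1 in 3 samples, where CPM is UMIs scaled to a common library total) in the fit of all samples, and 7 were called at day 13 against day 4 at the study's adjusted p of at most 0.25 (limma-voom). This compares with 0.509% called among all 17676 genes tested. That share, like the others given below, covers genes of all levels and is not matched to the levels of the mitochondrial genes. What part the level of a gene has in its being called was not tested. MT-CO1 and MT-TD rose. MT-CO2, MT-ND1, MT-CYB, MT-ATP6 and MT-TT fell. The changes of the 5 called mRNAs were small, at most 0.17 on the log2 scale, and in all 7 called genes the single samples of the 2 days overlapped. The median log2 fold change of the 28 genes was -0.07, beside 0.00031 over all genes.

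Among complex IV genes the direction differed. MT-CO1 (chrM:5904-7445), the catalytic subunit of cytochrome c oxidase, had a lowest, median and highest level of 1198, 1297 and 1409 CPM at day 4, 1255, 1458 and 1812 CPM at day 10, and 1280, 1446 and 1606 CPM at day 13. At day 13, 7 of 11 samples lay above every day 4 sample. Its log2 fold change at day 13 against day 4 was 0.14 (SE 0.0313, adjusted p = 0.0277, limma-voom), and the difference in mean log2 CPM was positive in 4 of 4 constructs, from 0.11 to 0.17.

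MT-CO2, which carries the copper center that receives electrons from cytochrome c, had a lowest, median and highest level of 6567, 7202 and 9417 CPM at day 4, 6059, 6540 and 8736 CPM at day 10, and 6032, 6736 and 7431 CPM at day 13. At day 13, 3 of 11 samples lay below every day 4 sample. The log2 fold change was -0.15 (SE 0.0272, adjusted p = 0.00233, limma-voom). By DESeq2 the adjusted p was 0.989, and without EF1a/sh-XIAP day 13 replicate 3 it was 0.735 by limma-voom, with a log2 fold change of -0.08. MT-CO3, the other mitochondrial subunit of complex IV, was at 1964 ± 85.4 CPM (SD, n = 10) at day 4 and 1936 ± 127 CPM (SD, n = 11) at day 13, with a log2 fold change of -0.02 (SE 0.0193) that was not called.

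Complex I genes all had negative estimates at day 13, and 1 of 7 was called. MT-ND1 (chrM:3307-4262), a core membrane subunit, had a lowest, median and highest level of 507, 556 and 603 CPM at day 4, 454, 541 and 631 CPM at day 10, and 457, 493.3 and 567.98 CPM at day 13. At day 13, 8 of 11 samples lay below every day 4 sample. The log2 fold change was -0.17 (SE 0.0354, adjusted p = 0.0139, limma-voom), and it was negative in 4 of 4 constructs. MT-ND2 had a log2 fold change of -0.11 (adjusted p = 0.485) and MT-ND4 one of -0.06 (adjusted p = 0.644, both limma-voom). MT-ND3, MT-ND4L, MT-ND5 and MT-ND6 had values of -0.21, -0.07, -0.07 and -0.02 and were not called.

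The single complex III gene and one gene of the ATP synthase fell. MT-CYB (chrM:14747-15887), cytochrome b, had a lowest, median and highest level of 1115, 1231 and 1326 CPM at day 4, 1060, 1166 and 1309 CPM at day 10, and 1077, 1156 and 1223 CPM at day 13. Its log2 fold change was -0.11 (SE 0.0257, adjusted p = 0.0398, limma-voom). MT-ATP6 (chrM:8527-9207), a membrane subunit of the proton channel, had a lowest, median and highest level of 1457, 1664 and 1721 CPM at day 4, 1234, 1477 and 1956 CPM at day 10, and 1387, 1428 and 1760 CPM at day 13. Its log2 fold change was -0.14 (SE 0.0328, adjusted p = 0.0398, limma-voom). These 2 calls were lost with the edgeR quasi-likelihood test, at adjusted p = 0.621 and 0.252. MT-ATP8, which overlaps MT-ATP6 as printed above, was at 22.4 ± 5.29 CPM (SD, n = 10) at day 4 and 19.3 ± 6.22 CPM (SD, n = 11) at day 13 and was not called.

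The 2 called tRNAs had larger changes at much lower counts. MT-TD rose from a lowest, median and highest level of 21.5, 42.2 and 67.5 CPM at day 4 to 28.6, 74.0 and 105 CPM at day 10 and 41.5, 67.0 and 92.7 CPM at day 13. Its log2 fold change at day 13 was 0.61 (SE 0.141, adjusted p = 0.0398, limma-voom), and it was positive in 4 of 4 constructs. MT-TT went from 5.36, 20.7 and 33.1 CPM at day 4 to 9.06, 15.9 and 25.4 CPM at day 10 and 5.43, 10.3 and 17.2 CPM at day 13, on 164, 93 and 78 UMIs. Its log2 fold change was -0.94 (SE 0.206, adjusted p = 0.0257, limma-voom). The difference in mean log2 CPM was negative in 3 of 4 constructs and 0.09 in EF1a/sh-CTRL, where day 4 replicate 2 had 2 MT-TT UMIs. By position, MT-CO1, MT-TS1, MT-TD and MT-CO2 follow one another, so that MT-CO1 and MT-TD rose beside a neighbour that fell, while MT-CYB and the tRNA that directly follows it, MT-TT, both fell.

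Exact permutation of the day within each construct was added after the data were seen, for the 19 named genes with a UMI in every sample. At day 13 against day 4 the 2-sided p on log2 CPM was 5e-05 for MT-ND1, the smallest the 20000 arrangements can give. It was 0.00025 for MT-TD, 0.00105 for MT-CO1, 0.0015 for MT-CYB, 0.00355 for MT-TT, 0.00565 for MT-ATP6 and 0.039 for MT-CO2 by exact permutation, and 11 of the 19 genes were under 0.05 without adjustment, beside 6.99% of the 10935 genes of the table with a UMI in every sample. By DESeq2 MT-ND1, MT-TD and MT-CO1 were called and by edgeR these with MT-CO2 and MT-TT. MT-ND3, with an exact p of 0.0007, was among the 11 and was not called by limma-voom (adjusted p = 0.85). Since each day holds samples of its own, day and anything handled with it cannot be told apart.

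**Figure D3:**
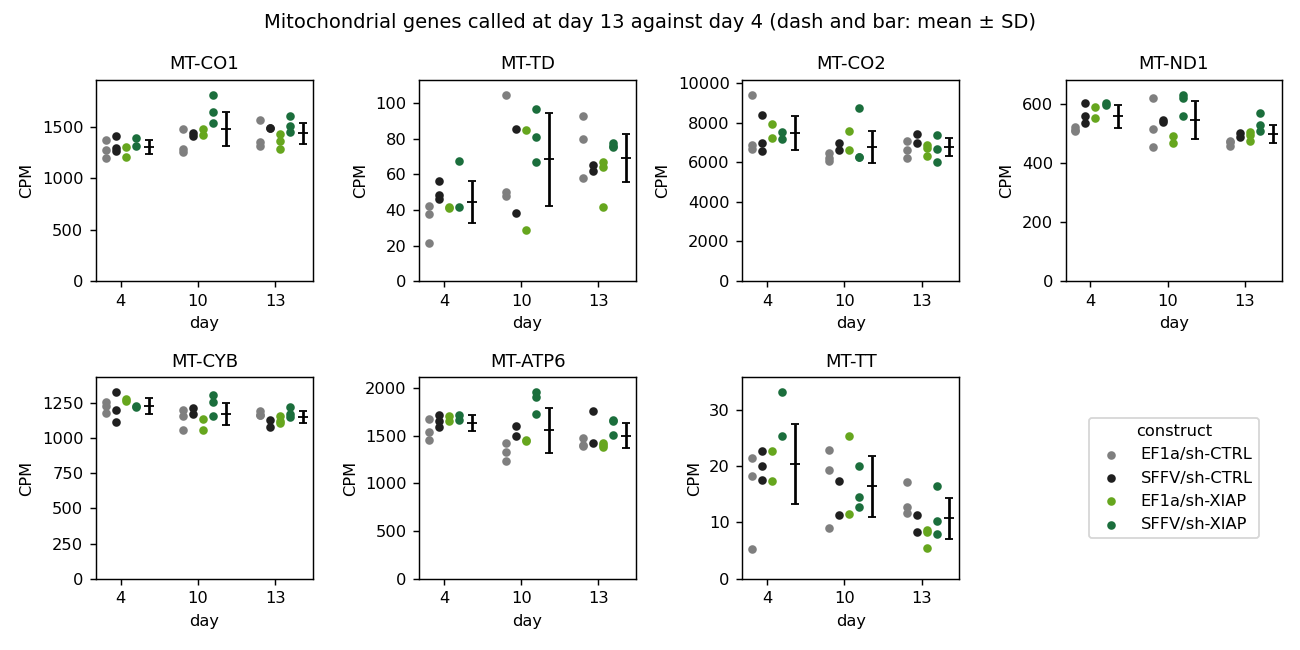
CPM (y axis, from 0) of the 7 mitochondrial genes called at day 13 against day 4, in each sample by day (x axis) and construct (colour); dashes and bars are the mean and SD over all constructs. MT-CO1 and MT-TD lie higher at days 10 and 13, the other 5 lower at day 13, and the samples of days 4 and 13 overlap in each panel.

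At day 10 against day 4, 2 of 28 genes were called, beside 0.26% of all genes. MT-CO1 rose with a log2 fold change of 0.14 (SE 0.0334, adjusted p = 0.0814, limma-voom), and 8 of 10 samples lay above every day 4 sample. MT-CO2 fell with one of -0.22 (SE 0.0316, adjusted p = 2.97e-05, limma-voom). For MT-CO2 the exact permutation within constructs gave p = 0.0878, against 0.00233 for MT-CO1. Without SFFV/sh-XIAP day 10 replicate 3, one of the deepest samples at 1148669 UMIs, the call of MT-CO2 was lost (adjusted p = 0.766, limma-voom). MT-TD had a log2 fold change of 0.51 (adjusted p = 0.388, limma-voom). By edgeR the called genes were MT-CO2 and MT-TD, and by DESeq2 MT-CO1 alone. At day 13 against day 10, 0 of 28 genes were called by limma-voom, beside 0.0226% of all genes, with 4 under an unadjusted p of 0.05, beside 5.98% of all genes (MT-ND1, MT-TT, MT-RNR2 and MT-CO2) and 0 called by edgeR or DESeq2. The 3 day comparisons share samples and are not independent of each other.

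**Figure D4:**
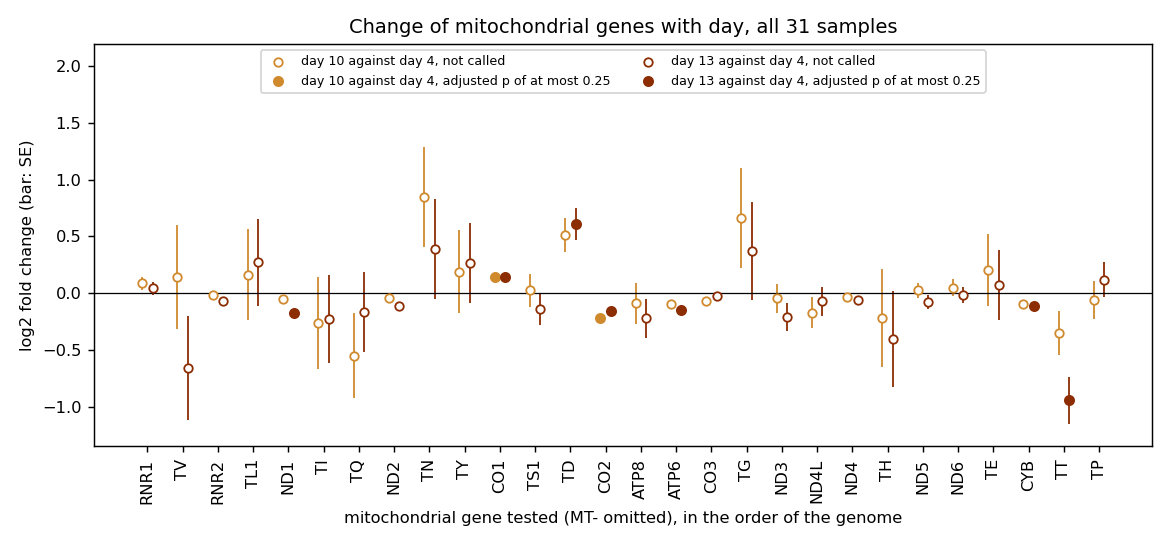
Log2 fold change (y axis; bars are SE) of the 28 mitochondrial genes tested, in genome order (x axis), at day 10 and at day 13 against day 4; filled points have an adjusted p of at most 0.25 by limma-voom. MT-CO1 (0.14) and MT-TD (0.61) lie on either side of MT-TS1 and just before MT-CO2 (-0.15 at day 13).

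The rRNAs were not called with day. MT-RNR2 was at 2445 ± 110 CPM (SD, n = 10) at day 4, 2433 ± 128 CPM (SD, n = 10) at day 10 and 2333 ± 93.8 CPM (SD, n = 11) at day 13, with a log2 fold change of -0.07 at day 13 against day 4 (SE 0.0215, adjusted p = 0.404, limma-voom). MT-RNR1 was at 269 ± 18.6, 283 ± 43.2 and 278 ± 21.01 CPM on the same days. MT-TS1, which lies against MT-CO1 on the other strand, was at 29.03 ± 4.52, 29.2 ± 4.69 and 26.7 ± 7.40 CPM, and MT-TP at 25.4 ± 7.39, 24.5 ± 6.28 and 27.9 ± 7.25 CPM. MT-TE was at 5.49 ± 3.39, 5.85 ± 3.80 and 5.37 ± 2.87 CPM.

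The next comparisons asked what XIAP knockdown did to the mitochondrial genes. XIAP itself, an inhibitor of caspases, was low in this assay. Its lowest, median and highest levels at days 10 and 13 were 3.81, 10.5 and 18.1 CPM with EF1a/sh-CTRL, 4.50, 10.5 and 15.4 CPM with SFFV/sh-CTRL, 7.63, 9.52 and 11.5 CPM with EF1a/sh-XIAP and 6.35, 8.15 and 14.6 CPM with SFFV/sh-XIAP. At day 4 they were 7.12, 10.4 and 16.1 CPM with EF1a/sh-CTRL and 7.21, 7.27 and 7.55 CPM with SFFV/sh-CTRL, with 9.19 and 12.7 CPM in the EF1a/sh-XIAP samples and 8.02 and 9.26 CPM in the SFFV/sh-XIAP samples. The XIAP levels of each knockdown and its control overlapped at days 10 and 13, so these counts do not check the labels. The study's own Western blots of NALM-6 cells, on protein rather than RNA, showed less XIAP with both promoters, more so with SFFV. At day 4 both samples labelled SFFV/sh-XIAP had more XIAP than each of the 3 SFFV/sh-CTRL samples, against the label, on 4 to 7 UMIs per sample.

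With strong KD at days 10 and 13 (SFFV/sh-XIAP against SFFV/sh-CTRL), 1 of 29 mitochondrial genes tested was called, beside 0.0792% of all genes. This was MT-TI, the isoleucine tRNA that directly follows MT-ND1, with 5, 2 and 7 UMIs in the day 10 and 6, 7 and 1 in the day 13 samples of SFFV/sh-XIAP, 28 in all, and 0 in each of the 4 SFFV/sh-CTRL samples. Scaled to the total UMIs of each group (4491806 with SFFV/sh-XIAP and 1800329 with SFFV/sh-CTRL), it was at least 3.74-fold higher in pooled UMIs. This takes the 0 as at most 3 counts over the control group. The bound allows for counting error in the control alone. It leaves out the counting error of the 28 UMIs and the spread between samples. The sequence of this short gene is given because the call rests on so few UMIs.
MT-TI, chrM:4263-4331, plus strand: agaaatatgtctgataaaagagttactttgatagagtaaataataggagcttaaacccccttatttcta
The call had adjusted p = 0.165 (limma-voom), and exact permutation gave p = 0.00952. It was lost with DESeq2, with the total of UMIs as a covariate, at either day alone, and when 11 of the 21 samples were left out one at a time. These 11 were EF1a/sh-CTRL day 10 replicates 1, 2 and 3, SFFV/sh-CTRL day 10 replicates 1 and 2 and day 13 replicates 1 and 2, EF1a/sh-XIAP day 13 replicate 2, and SFFV/sh-XIAP day 10 replicates 1 and 3 and day 13 replicate 2, with adjusted p up to 0.679 by limma-voom. At day 4 the SFFV/sh-CTRL samples had 3, 3 and 0 MT-TI UMIs and the SFFV/sh-XIAP samples 3 and 5.

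Below the threshold, the estimates with strong KD were mostly positive. Of the 13 mRNAs 11 had a positive log2 fold change, from -0.22 to 0.21 with a median of 0.10, and none was called over both days. MT-ATP6 was called at day 10 alone and MT-CO3 at day 13 alone. For these single days, and for the fits without 1 sample that follow, the share of all genes called is not given. MT-ND4 was called without EF1a/sh-XIAP day 10 replicate 1, without SFFV/sh-XIAP day 10 replicate 2, and, together with MT-CO3, without EF1a/sh-XIAP day 13 replicate 3. Over all 29 tested genes 22 were positive with a median of 0.12, beside 8387 positive of 17683 genes and a median of -0.02. Of the 19 mitochondrial genes with a UMI in every sample, MT-ND2 showed no overlap between the groups, beside 1.34% of the 10935 such genes of the table. The 4 SFFV/sh-CTRL samples had 477, 491, 500 and 504 CPM, and the 6 SFFV/sh-XIAP samples had 543 CPM at the lowest, 551 at the median and 602 at the highest. Every knockdown sample was higher than every control sample. Its log2 fold change was 0.17 (SE 0.0571, adjusted p = 0.697, limma-voom), and the exact 2-sided permutation test on CPM gave p = 0.00476, the smallest that these 10 samples allow. The comparisons of single genes between constructs numbered 42 in all and were not adjusted.

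In all 8 of 29 genes had an unadjusted p under 0.05 by limma-voom, beside 5.58% of all genes. Besides MT-TI, MT-TY and MT-ND2 these were 4 mRNAs and 1 rRNA whose groups overlapped. MT-ND4 was at 1437 ± 51.6 CPM with SFFV/sh-XIAP and 1345 ± 84.5 CPM with SFFV/sh-CTRL (SD, n = 6 and 4; exact permutation p = 0.081). MT-ATP6 was at 1737 ± 167 and 1570 ± 145 CPM (exact p = 0.148), MT-CO3 at 1989 ± 63.9 and 1861 ± 129 CPM (exact p = 0.0524), MT-ND1 at 569 ± 48.7 and 518 ± 27.0 CPM (exact p = 0.105) and MT-RNR1 at 305 ± 38.8 and 256 ± 24.2 CPM (exact p = 0.0667). MT-CO2, the most abundant, was at 6898 ± 1020 and 7006 ± 329 CPM (exact p = 0.886). MT-TY, a tyrosine tRNA named after its values were seen, had 21 UMIs in the 6 SFFV/sh-XIAP samples and 1 in the 4 SFFV/sh-CTRL samples, and was not called (adjusted p = 0.563, limma-voom).

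With moderate KD at days 10 and 13 (EF1a/sh-XIAP against EF1a/sh-CTRL), 0 of 29 genes were called by limma-voom, edgeR or DESeq2, beside 0.017% of all genes, and 1 had an unadjusted p under 0.05 by limma-voom, beside 4.62% of all genes. This was MT-CO3, at 1969 ± 125 CPM in 5 samples and 1914 ± 65.7 CPM in 6 samples (SD), with a log2 fold change of 0.09 (SE 0.027, adjusted p = 0.992, limma-voom) and an exact permutation p = 0.361. Of the 29 estimates 12 were positive, with a median of -0.01. Here MT-ND2 was at 483 ± 51.5 and 472 ± 27.7 CPM and MT-TI had 6 UMIs in each group. By exact permutation without adjustment, MT-TP (p = 0.0216) and MT-TS1 (p = 0.0411) were under 0.05, at 21.1 against 28.6 CPM and 31.8 against 24.7 CPM. This was 2 of the 19 mitochondrial genes with a UMI in every sample, beside 5.19% of all such genes.

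**Figure D5:**
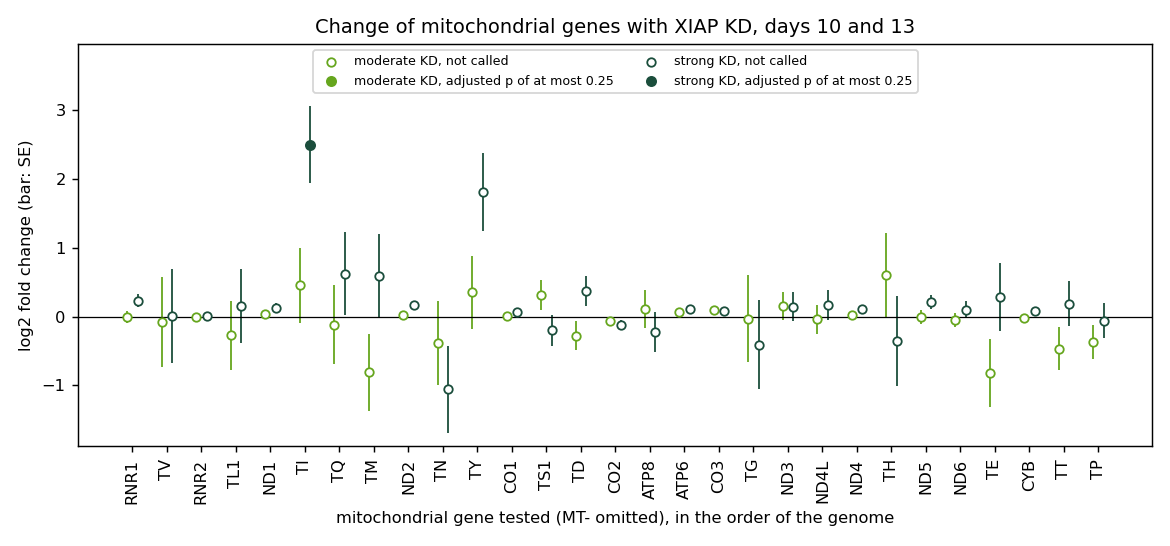
Log2 fold change (y axis; bars are SE) of the 29 mitochondrial genes tested, in genome order (x axis), with moderate and with strong XIAP KD at days 10 and 13; the filled point has an adjusted p of at most 0.25 by limma-voom. MT-TI with strong KD (2.50) is the filled point, and the mRNAs lie between -0.22 and 0.21 with strong KD.

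The difference between strong and moderate KD was tested directly. It called 0 of 29 genes, beside 0.00566% of all genes, with 2 under an unadjusted p of 0.05, beside 5.06% of all genes. These were MT-TI, with a difference of 2.05 in log2 fold change (adjusted p = 0.964), and MT-TD, with 0.65 (adjusted p = 0.964, both limma-voom). The promoter comparison of the 2 control constructs (SFFV/sh-CTRL against EF1a/sh-CTRL, days 10 and 13) also called 0 of 29, beside 0.00566% of all genes, and MT-ATP6 (0.18 on the log2 scale) and MT-RNR2 (-0.08) were under an unadjusted p of 0.05, beside 5.16% of all genes. Neither edgeR nor DESeq2 called a mitochondrial gene in these 2 comparisons.

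At day 4 XIAP went against the label, on few UMIs. The samples labelled SFFV/sh-XIAP against SFFV/sh-CTRL there gave 0 of 29 genes called by limma-voom, edgeR or DESeq2, beside 0.0109% of all genes. MT-CO2 and MT-ND2 were under an unadjusted p of 0.05, 2 of 29 beside 4.72% of all genes. MT-ND2 was thus higher in the SFFV/sh-XIAP samples already at day 4, at 565 and 529 CPM against 464, 500 and 510 CPM with SFFV/sh-CTRL. Moderate KD at day 4 called 2 of 29, beside 0.0491% of all genes. MT-CO2 had a log2 fold change of 0.16 (SE 0.0283, adjusted p = 0.00533, limma-voom), yet its mean CPM was lower in the knockdown: the EF1a/sh-XIAP samples had 7948 and 7216 CPM, and the EF1a/sh-CTRL samples had 6899, 9417 and 6668 CPM. The sample at 9417 CPM was the shallowest of the group, with 372930 UMIs. MT-ATP6 had 1655 and 1705 CPM with EF1a/sh-XIAP and 1543, 1673 and 1457 CPM with EF1a/sh-CTRL, with a log2 fold change of 0.19 (SE 0.0359, adjusted p = 0.0148, limma-voom). The groups overlapped for both genes. Neither was called by edgeR, DESeq2, limma-trend, a replicate block, or without EF1a/sh-CTRL day 4 replicate 3, and the sign of MT-CO2 turned with 3 of these.

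The nuclear copies shared part of these patterns. In all, 122 copies were listed with 158798 UMIs, of which 120062 (75.6%) fell on 7 copies in 1 segment of chromosome 1 (chr1:629062-634922). MTCO2P12 had 54681 UMIs, or 38.6 per 100 UMIs of MT-CO2 (36.1 to 42.0 over the samples). MTATP6P1 had 27570, or 85.8 per 100 of MT-ATP6 (77.5 to 90.5), and MTCO1P12 had 16237, or 56.9 per 100 of MT-CO1 (51.1 to 64.0). At day 13 against day 4, MTCO1P12 rose (log2 fold change 0.14, adjusted p = 0.177) and MTATP6P1 fell (-0.17, adjusted p = 0.0139, both limma-voom), while MTCO2P12 had a value of -0.09 and was not called (adjusted p = 0.753). Named after their values were seen, 3 other copies were also called, in a comparison that called 0.509% of all genes. How many copies were tested is not given here. MTCO2P2, of MT-CO2, fell (-0.33, adjusted p = 0.0886), and MTND1P23, of MT-ND1, fell (-0.24, adjusted p = 0.218). MTCO1P40, of MT-CO1, rose (0.40, adjusted p = 0.00478, all limma-voom). In the windows printed above, reads of MTCO2P12 and MT-CO2, and of MTCO1P12 and MT-CO1, cannot be told apart, while reads of MTATP6P1 and MT-ATP6 can be told apart only where they cover the base that differs. The counts of MT-CO1, MT-CO2 and MT-ATP6 are uncertain to that extent. So are those of MT-ND1: MTND1P23 had 0 mismatches to its last 60 bases. It had 41.5 UMIs per 100 of MT-ND1 (32.1 to 51.6 over the samples). All listed copies of MT-CO3 and of MT-RNR2 had 42.5 and 34.1 UMIs per 100 of their genes. With the copies' counts added to their mitochondrial genes, the same 7 genes were called at day 13 against day 4.

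The nuclear genes that transcribe, process and replicate the mitochondrial chromosome did not pass the test in any of the 9 comparisons, in which 0.00566% to 0.509% of all genes were called, so that a list of this size would hold about 0 calls at that rate. These were 8 genes of mitochondrial transcription, 18 of RNA processing and stability, 10 of DNA replication and 7 tested of 8 regulators of nuclear mitochondrial genes. At day 13 against day 4, POLRMT, the mitochondrial RNA polymerase, had a log2 fold change of -0.33 (SE 0.146, adjusted p = 0.704, limma-voom) and TFB1M one of -0.29 (adjusted p = 0.846). TRNT1, which adds CCA to tRNAs, was at -0.29 (adjusted p = 0.635) and FASTK at -0.15 (adjusted p = 0.895, both limma-voom). MGME1 and TWNK, of mitochondrial DNA replication, were at 0.21 and -0.13, and YY1 and NRF1 at 0.09 and -0.20. With strong KD at days 10 and 13 the smallest p in these lists were those of MTERF3, at -0.52 (adjusted p = 0.797), FASTKD1, at -0.39 (adjusted p = 0.819, both limma-voom), RNASEH1, at 0.54, and ESRRA, at -0.32.

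Total UMIs per sample ranged from 312852 to 1153668. All 10 precursor B-cell markers were detected, with a summed level of 4400 to 5041 CPM over the samples. Markers of other cells were at or near 0, with summed levels of 0 to 6.39 CPM for 5 T-cell genes (3 with no UMI), 0 to 25.6 CPM for 5 myeloid genes, 0 to 5.29 CPM for 5 erythroid genes and 0 to 6.91 CPM for 5 stromal genes. The myeloid maximum was in a SFFV/sh-XIAP sample. In the 26 pairs of samples of 1 construct and day, the chi-square per gene was 1.07 to 2.42, where sampling noise alone gives about 1. No pair was counted as 1 sample. The largest values were of pairs with EF1a/sh-CTRL day 4 replicate 2 (2.04 and 2.42) and with SFFV/sh-XIAP day 10 replicate 2 (1.71 and 2.18). The remaining pair of each of these groups had 1.14 and 1.17, respectively.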

How the data were processed

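The authors deposited a table of raw UMI counts per gene from prime-seq libraries of 31 samples. Per the labels and the submitters' processing notes, reads were aligned with STAR 2.6.0a, and the notes name both the human (hg38/GRCh38) and the mouse (mm10/GRCm38) genome with no role for either; no counting tool, annotation or strand setting is named there or in the study's methods. Identifiers were named from GENCODE 29 (GRCh38), which matched 29928 of 30667. Precision was limited by depth, with 312852 to 1153668 UMIs per sample.

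Genes over 1 CPM in at least 1 in 3 samples of a fit were tested by limma-voom with TMM scaling (limma 3.58.1, edgeR 4.0.16, R 4.3.3), with Benjamini-Hochberg adjustment over all genes tested, and a gene was called where its adjusted p was 0.25 or lower, as in the study. The 3 fits covered days 10 and 13 (21 samples, construct and day), day 4 (10 samples, construct) and all 31 samples (construct and day). Comparisons that share control samples are not independent. Single genes were compared by exact permutation tests (scipy 1.17.1). Alternatives covered scaling, filter, test (edgeR quasi-likelihood, DESeq2 1.42.0, limma-trend, quality weights), covariates, nuclear copies, threshold, single days and leaving out each sample. Permutation of the day within constructs, and the shares of all genes passing the exact tests, were added after the data were seen. The scripts were tested on simulated data in which 200 genes were changed 2-fold. For strong KD at days 10 and 13, limma-voom called 188 of these genes and 91 unchanged ones. For strong KD at day 4 it called 157 and 40, and for day 13 against day 4 it called 200 and 60. The genes named were all mRNAs and rRNAs, the tRNAs with at least 100 UMIs or called, the 3 nuclear copies with the most UMIs, XIAP, and of each nuclear list the 2 genes with the smallest p. The members and lists were chosen with earlier results of these data known. No deposited sample was left out here. The study's methods state that some samples were excluded as outliers by principal component analysis. The labels of the 31 samples skip replicate 3 of SFFV/sh-CTRL at days 10 and 13 and of EF1a/sh-XIAP at days 4 and 10. They also skip replicate 2 of SFFV/sh-XIAP at day 4. These gaps are as many as the samples that the study excluded. That they are the same samples is not stated. If they are, the 31 samples are a set trimmed of outliers, and the spread behind every p-value here is narrowed.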

Additional observations from a re-analysis of the deposited data

Results flagged for a closer look

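Within the 4 constructs at days 10 and 13, 80 groups of samples over 20 measures were searched for a single sample far from the others by Dixon's criterion, which chance meets in about 1 in 20 groups, and 5 met it. MT-RNR2 was at 2596 CPM in EF1a/sh-XIAP day 10 replicate 2, where the next sample had 2405 CPM. MT-ND1 was at 618.5 CPM in EF1a/sh-CTRL day 10 replicate 3, against 514 CPM in the next. MT-ND3 was at 70.5 CPM in EF1a/sh-CTRL day 10 replicate 2, against 36.2 CPM. The same sample had the lowest MT-CYB level of its construct, 1060.1 CPM, where the next lowest had 1160.5 CPM. MT-ND4L was at 51.8 CPM in SFFV/sh-CTRL day 10 replicate 1, against 40.4 CPM. All 5 values came from day 10 samples, which had 315055 to 524479 UMIs.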

How the results depend on the processing

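Counts of called mitochondrial genes moved by over 1.5 times in these cases, and the cause was not tested. For these counts, and those with 1 sample left out or a replicate block below, the share of all genes called under the same setting is not given. The same holds for calls by other tests, on single days or under other settings named earlier. A moved count is therefore not a result about the mitochondrial genes alone. With strong KD at days 10 and 13 (1 called) the count was 0 with DESeq2, with log2 total UMIs as a covariate and at an adjusted p of at most 0.05. With moderate KD at days 10 and 13 (0 called) it was 1 without a filter, with copies added and at day 10 alone. It rose from 0 to 1 for strong minus moderate KD at day 10 alone, and for the promoter comparison, strong KD at day 4 and day 13 against day 10 without a filter, the last also with copies added. With moderate KD at day 4 (2 called) it was 0 with library totals only, edgeR, DESeq2 and limma-trend. At day 10 against day 4 (2 called) it was 13 without a filter, 1 with DESeq2 and at an adjusted p of at most 0.05, and 0 with limma-trend. At day 13 against day 4 (7 called) it was 3 with DESeq2 and 2 (MT-ND1 and MT-TD) with limma-trend.

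Leaving out 1 sample gave counts of 0 to 3 for strong KD at days 10 and 13, 0 to 2 for moderate KD at day 4, 2 to 3 at day 10 and 6 to 9 at day 13 against day 4, and 0 in the other 5 comparisons. With the nuclear copies added, the mitochondrial share was 2.52%, 2.63%, 2.595% and 2.72% at days 10 and 13 with EF1a/sh-CTRL, SFFV/sh-CTRL, EF1a/sh-XIAP and SFFV/sh-XIAP, and 2.73%, 2.64% and 2.59% at days 4, 10 and 13.

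A few log2 fold changes turned sign. MT-CO3 with moderate KD was -0.0046 at day 10 alone. MT-CO2 with moderate KD at day 4 was -0.0048 with edgeR and -0.034 with DESeq2. MT-CO2 at day 13 against day 10 was -0.033 without a filter and -0.0029 with DESeq2, and ranged from -0.069 to 0.097 when 1 sample was left out. With strong KD at day 4 MT-CO2 ranged from -0.026 to 0.14.

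Samples with the same replicate number showed no shared deviation: the correlation was over 0.1 in 0 of 149 pairs, with a mean of -0.00055. Much of the deviation may be counting noise, with a chi-square per gene of 1.07 to 2.42 between samples of a group. A pairing could be hidden by it, so whether the numbers pair the samples is not settled. With the replicate block the count was 1 for strong KD at day 4, 0 for moderate KD at day 4, where MT-CO2 was at -0.0095, and 8 at day 13 against day 4, the 7 genes and MT-RNR2.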
